A study of Mus musculus with 16 samples.

Results

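The genes described here are 8 kallikreins of the epidermis (Klk5, Klk6, Klk7, Klk8, Klk10, Klk11, Klk13 and Klk14) and 2 genes that regulate them, the inhibitor Spink5 and the activating protease St14. They were chosen by symbol, as the 10 of the 50600 genes in the count table whose identifiers map to these names. All 10 had at least 10 counts over the 16 libraries and so were among the 22155 genes tested. Female C57/B6J mice were fed from 5 wk of age, for 3 wk, a purified AIN-93M diet poor in ligands of the aryl hydrocarbon receptor (the AhR-poor diet, labelled SYNTH) or that diet enriched to 200 ppm in indole-3-carbinol (the I3C diet), a plant compound whose products activate that receptor. The footpad was injected with 50 μl of vehicle (PBS) or with 50 μg of papain, a plant cysteine protease used as a model allergen, and the epidermal cells were isolated 6 hr later. Each of the 4 combinations of diet and injection had 4 mice, and each library came from 1 mouse. All mice were of this strain, and all received the purified base diet. Mice on the same diet shared a cage, so that diet and cage cannot be told apart.

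Kallikreins are secreted serine proteases made in the upper, differentiated layers of the epidermis. They are stored as inactive precursors and activate one another in a cascade, in which KLK5 can activate itself and other members, and the active enzymes cut the corneodesmosomal proteins that hold corneocytes together, so that dead cells are shed from the surface. LEKTI, the product of Spink5, holds the cascade in check, and its loss causes Netherton syndrome, a disease of barrier failure and allergy. Matriptase, the product of St14, is a membrane-bound protease that can start the cascade by cutting kallikrein precursors. Besides shedding, these proteases can cut antimicrobial peptide precursors, cytokine precursors and the protease-activated receptor encoded by F2rl1.

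The libraries held 22500821 to 51844375 counts, so that 3 counts, taken as the floor of detection, corresponded to 0.0569 to 0.130 CPM, the unit of level used here (library-scaled counts, with TMM factors). Basal keratinocyte markers summed to 21100 to 37300 CPM and suprabasal markers to 25700 to 66200 CPM over the libraries, so the keratinocyte markers that the epidermal label calls for were abundant in every library. Other markers moved with the groups. Granular-layer keratinocyte markers, 9 genes of the layer in which kallikreins are made, had a median summed level of 1170 CPM with vehicle and 754.7 CPM with papain on the AhR-poor diet, and of 1080 and 621.2 CPM on the I3C diet. Such sums weigh the most abundant genes most. Gene by gene, the median log2 difference of papain from vehicle was -0.76 on the AhR-poor diet, with 0 of the 9 called higher and 1 lower. On the I3C diet it was -0.89, with 1 called higher and 1 lower. The median log2 difference of the AhR-poor from the I3C diet was 0.82 with vehicle and 0.92 with papain, with 0 of the 9 called. Neutrophil markers, 7 genes, went from 2.47 to 109.2 CPM on the AhR-poor diet and from 0.758 to 25.5 CPM on the I3C diet. On the I3C diet, 3 of the 7 were at 0 in every vehicle library and 2 in every papain library. With papain, 5 of the 7 were called higher on the AhR-poor diet and 1 on the I3C diet. Dermal fibroblast markers, 8 genes, stood at medians of 119.8 and 551.2 CPM on the AhR-poor diet and of 22.3 and 16.5 CPM on the I3C diet. Endothelial markers, 6 genes, stood at medians of 15 and 40.3 CPM on the AhR-poor diet and of 1.51 and 0.979 CPM on the I3C diet. The part of these shifts in the results below was not tested, and in such bulk libraries fewer cells of a type and less RNA per cell cannot be told apart.

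The 8 kallikreins lie on 1 strand of chromosome 7 (GRCm38, GENCODE M21), within 160.8 kb between positions 43690418 and 43851181, in the order Klk14, Klk13, Klk11, Klk10, Klk8, Klk7, Klk6 and Klk5, with Klk12 and Klk9 between them. Spink5 lies on chromosome 18 (43963235 to 44022501) and St14 on chromosome 9 (31089402 to 31131853). Although the kallikreins are paralogs, no run of 50 bases in the annotated transcripts of any of the 8 occurred in a transcript of another kallikrein. An antisense RNA, 2310002F09Rik, shares 382 exonic bases with Klk8 and 287 with Klk14 on the opposite strand. The strand setting of the authors' counting is not given in the sources used here, so the counts of Klk8 and Klk14 may hold reads of this RNA.

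Compared per kb of merged exon, the genes fell into clear tiers in vehicle-injected skin. On the AhR-poor diet with vehicle, Klk5, which starts the cascade, stood at 87.2 ± 28 CPM per kb (SD, n = 4), Klk11 at 81.9 ± 13.3, Klk8 at 76.2 ± 18.4, Klk7, the chymotrypsin-like enzyme of corneodesmosome cleavage, at 65.6 ± 20.7, and Spink5 at 49.2 ± 16.8 CPM per kb. Each of these 5 overlapped its neighbour in the order within 1 SD. St14 (9.74 ± 0.765 CPM per kb) and Klk10 (9.44 ± 1.73) came next and did not differ beyond their spread on this length, followed by Klk13 (4.48 ± 1.56) and Klk6 (0.893 ± 0.319). The I3C diet with vehicle had the same members at the top and the bottom, with Klk11 at 81.5 ± 6.33, Klk8 at 65.3 ± 15.3, Klk5 at 60.3 ± 17.2, Klk7 at 37.5 ± 12.4, Spink5 at 30.1 ± 5.68, Klk10 at 13.7 ± 2.81, St14 at 8.54 ± 0.41, Klk13 at 4.94 ± 0.477 and Klk6 at 0.583 ± 0.119 CPM per kb. On this length, Klk10, St14, Klk13 and Klk6 were separated there from the member above them by more than the SDs. The place of St14 depended on the length used. Divided by the longest transcript, St14 was at 20.9 CPM per kb on the AhR-poor diet and 18.4 on the I3C diet with vehicle, above Klk10, which stayed at 9.44 and 13.7 CPM per kb. Klk14 was at the edge of detection, with 30 counts in all 16 libraries, 0 in 3 of them and more than 3 in 2, so no fold change is given for it.

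**Figure D1:**
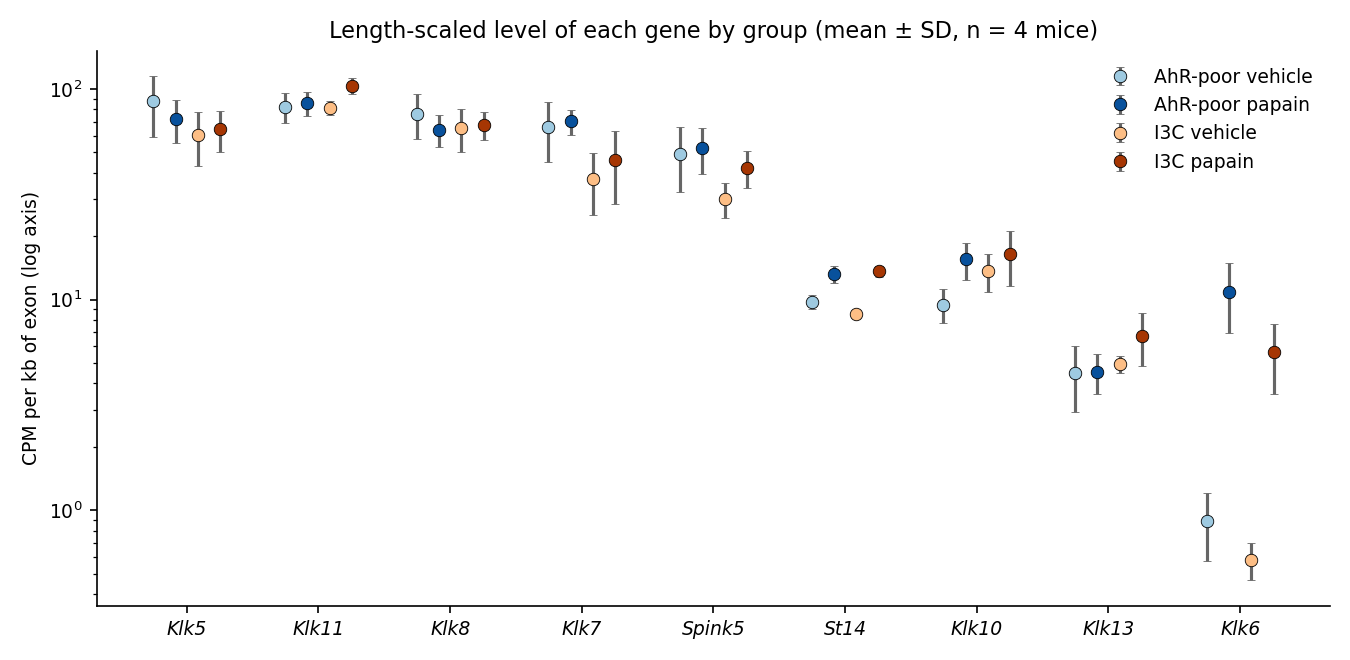
Mean level of 9 of the genes in each group, in CPM per kb of exon on a log axis, with bars of 1 SD over 4 mice; Klk14, which was near 0, is left out. Klk5, Klk11, Klk8, Klk7 and Spink5 lie between 30.1 and 103.6 CPM per kb in every group, while Klk6 moves from below 1 with vehicle to 5.62 and 10.9 with papain.

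Papain raised Klk6 on both diets, and Klk6 was the kallikrein of the set that passed the threshold. Klk6 encodes a trypsin-like kallikrein that is also abundant in oligodendrocytes of the nervous system. It lies at chr7:43824499-43832030, between Klk7 and Klk5. On the AhR-poor diet its level was 1.01 CPM in T100, 1.06 in T101, 2.05 in T102 and 1.29 in T103 with vehicle, and 14.1 CPM in T104, 18.8 in T105, 23.5 in T107 and 9.52 in T112 with papain. Every papain library was thus far above every vehicle library, although the papain libraries differed among themselves. The rise was 3.59 ± 0.33 on the log2 scale (estimate ± SE), or 12.1-fold, with an adjusted p of 5.92e-07 (edgeR quasi-likelihood test, Benjamini-Hochberg over all tested genes).

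On the I3C diet Klk6 was at 0.804 CPM in T108, 0.688 in T109, 0.925 in T110 and 1.11 in T111 with vehicle, and at 9.21 CPM in T106, 12.6 in T113, 6.91 in T114 and 5.35 in T115 with papain. Again the groups did not overlap. The rise was 3.27 ± 0.34 on the log2 scale, 9.63-fold, with an adjusted p of 1.09e-06 in edgeR. The exact two-sided permutation test gave p = 0.0286 on each diet, the smallest that 4 libraries against 4 allow. Klk6 had 27 to 83 counts in each vehicle library and 215 to 992 in each papain library, well above the floor. Without any 1 library, the rise stayed between 3.38 and 3.89 on the AhR-poor diet and between 3.01 and 3.44 on the I3C diet.

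Because Klk6 moved and its neighbours on either side did not pass the threshold, the bases before its start sites and before those of Klk7 and Klk5 are shown, 120 for each, from RefSeq windows on GRCm38.p6, plus strand, 5′ to 3′, with annotated exons left out. Capitals mark GCGTG, the core of the element that the AhR binds with ARNT, wherever it was found on either strand:
Klk7 start, chr7:43811174-43811293: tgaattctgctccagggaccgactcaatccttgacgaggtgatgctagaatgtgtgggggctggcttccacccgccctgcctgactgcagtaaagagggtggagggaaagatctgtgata
Klk6 start 1, chr7:43824379-43824498: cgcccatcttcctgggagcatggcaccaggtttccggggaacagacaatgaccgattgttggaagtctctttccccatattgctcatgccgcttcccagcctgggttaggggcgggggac
Klk6 start 2, chr7:43825275-43825394: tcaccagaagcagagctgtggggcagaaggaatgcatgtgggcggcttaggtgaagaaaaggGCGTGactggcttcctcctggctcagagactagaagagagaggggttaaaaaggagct
Klk5 start, chr7:43842149-43842268: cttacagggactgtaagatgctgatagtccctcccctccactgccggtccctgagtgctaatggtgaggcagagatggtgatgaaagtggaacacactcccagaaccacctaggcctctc

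RefSeq windows of 300 bases, from 250 before to 50 after the start, existed for 10 starts of the 8 kallikreins. GCGTG was in 1 of the 10, the second start of Klk6, where it begins at position -113, and in 32.4% of all 32851 windows. The AP-1 site TGANTCA, searched on both strands, was in 0 of the 10 and in 7.8% of all windows. These are matches of letters and not measured binding. Spink5 and St14 had no window in the table.

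**Figure D2:**
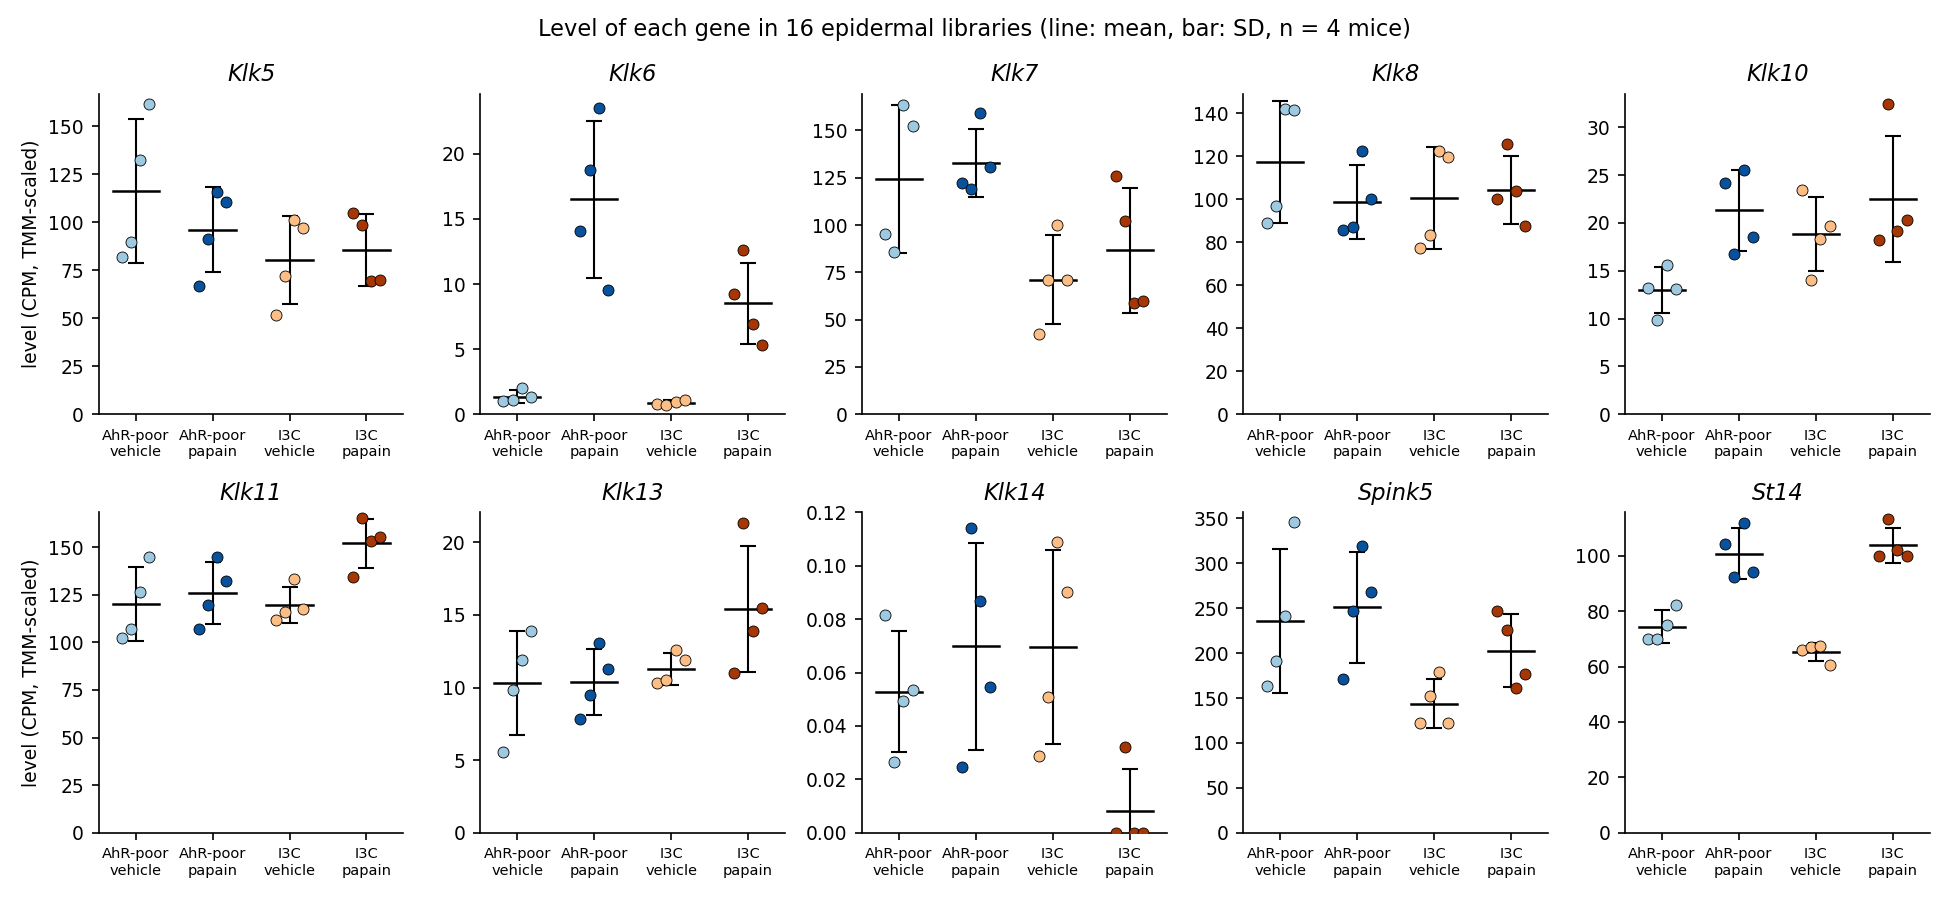
Level in CPM of each of the 10 genes in every library, in 4 groups of 4 mice, with the mean as a line and 1 SD as a bar; each panel has its own axis from 0. The papain libraries of Klk6 (5.35 to 23.5 CPM) and of St14 (92.3 to 113.2 CPM) all lie above the vehicle libraries on both diets, while the groups overlap on both diets for Klk5, Klk7, Klk8, Klk13 and Spink5.

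Over the 10 genes, 1 was called higher with papain on the AhR-poor diet (Klk6) and 0 lower, by the edgeR threshold (adjusted p below 0.01, log2 fold change beyond 1), where 6.04% of all tested genes were called higher and 2.42% lower. On the I3C diet, 1 was called higher (Klk6) and 0 lower, against 3.69% and 5.29% of all tested genes. DESeq2 gave the same counts. At an unadjusted p below 0.05, 3 of the 10 passed on the AhR-poor diet, where 42% of all tested genes did, and 4 on the I3C diet, where 43.3% did. The median log2 fold change of the 10 was 0.09 and 0.32, beside 0 and -0.04 over all tested genes.

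The other kallikreins above the floor did not pass the threshold, and their fitted differences were under 2-fold. Klk10 was at 13.2, 9.85, 15.6 and 13.1 CPM in T100, T101, T102 and T103, and at 24.2, 16.8, 25.5 and 18.5 CPM in T104, T105, T107 and T112 with papain on the AhR-poor diet. These 2 sets did not overlap, with a log2 difference of 0.71 ± 0.20 and an adjusted p of 0.0133 (edgeR), which misses the threshold of 0.01. On the I3C diet Klk10 was at 18.8 ± 3.86 CPM with vehicle and 22.5 ± 6.63 with papain (log2 difference 0.25 ± 0.20, edgeR adjusted p = 0.367), and the groups overlapped. Klk11 showed the other arrangement. On the I3C diet it was at 111.9, 115.9, 133.0 and 117.4 CPM in T108, T109, T110 and T111 and at 134.4, 165.2, 153.2 and 155.4 CPM in T106, T113, T114 and T115. The groups were adjacent and did not overlap (log2 difference 0.35 ± 0.11, edgeR adjusted p = 0.0178). On the AhR-poor diet Klk11 was at 120.1 ± 19.5 CPM with vehicle and 125.9 ± 16.4 with papain, and the groups overlapped. Whether these differences differed between diets was tested by the interaction term, with adjusted p of 0.514 for Klk10 and 0.443 for Klk11 (edgeR).

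Klk5, Klk7, Klk8 and Klk13 overlapped between vehicle and papain on both diets. Klk5 was at 116.5 ± 37.4 CPM with vehicle and 96.2 ± 22.1 with papain on the AhR-poor diet, and its 95% interval for the log2 fold change ran from -0.80 to 0.24. For Klk7 the levels were 124.3 ± 39.2 and 132.8 ± 18.2 CPM, with an interval of -0.49 to 0.68. Klk8 was at 117.3 ± 28.4 and 98.7 ± 17 CPM, with an interval of -0.62 to 0.12. Klk13 was at 10.3 ± 3.58 and 10.4 ± 2.27 CPM, with an interval of -0.46 to 0.49. A change as large as that of Klk6 lies outside all of these intervals. The I3C intervals were -0.43 to 0.61 for Klk5, -0.30 to 0.88 for Klk7, -0.32 to 0.42 for Klk8 and -0.03 to 0.91 for Klk13. Klk14 was at 1 count in T113 and at 0 in the other 3 papain libraries of the I3C diet, and at 0.0287 to 0.109 CPM in the vehicle libraries of that diet, which is too close to the floor to compare.

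**Figure D3:**
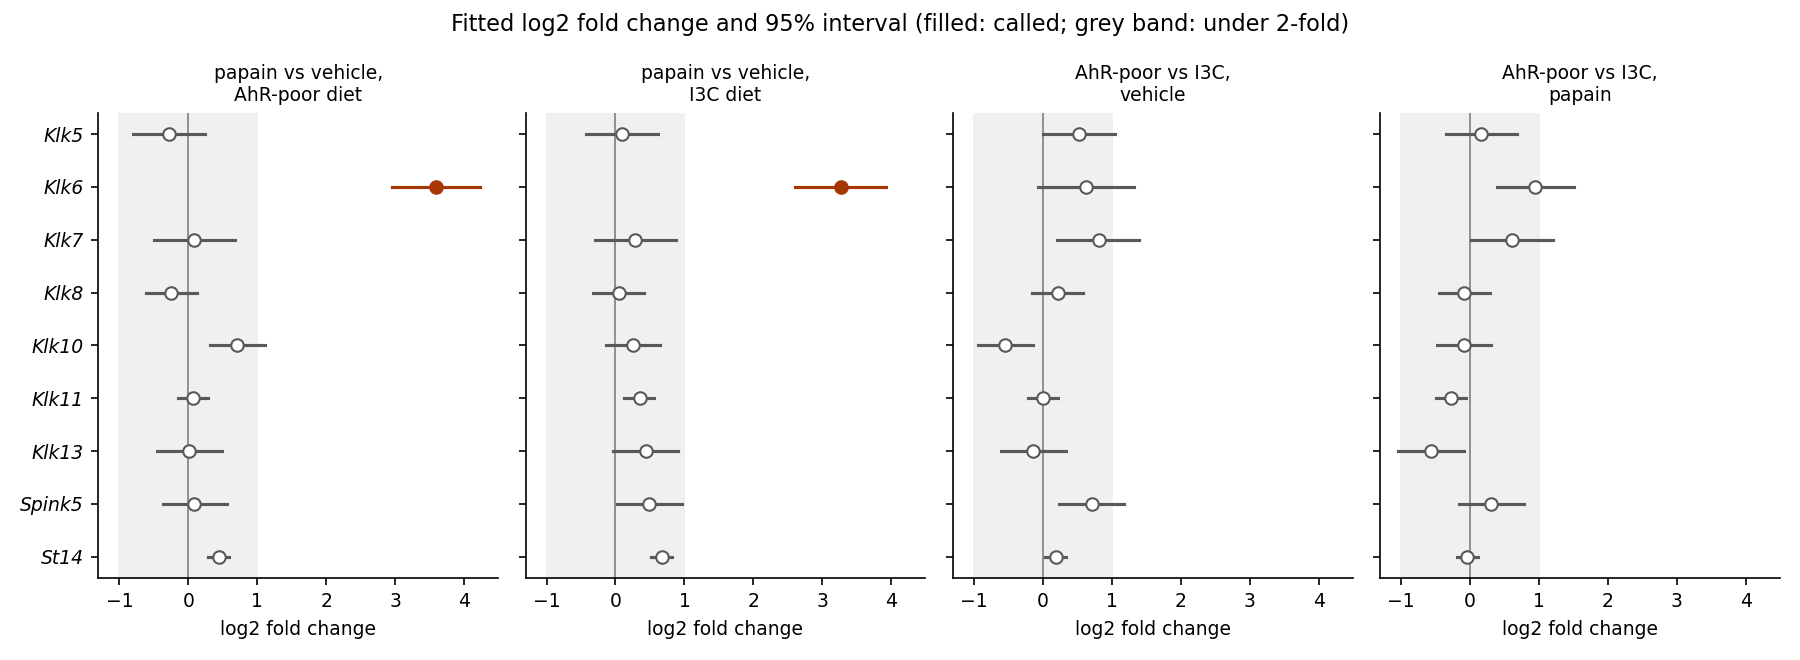
Fitted log2 fold change of 9 of the genes in the 4 comparisons, with 95% intervals from the edgeR fit; filled points passed the threshold, and the grey band marks changes under 2-fold. Klk6 stands at 3.59 and 3.27 in the papain comparisons, outside the band, and every other point lies inside it.

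St14, the membrane protease that can start the cascade, rose by a small and even amount. It was at 70, 70.1, 74.9 and 82.4 CPM in T100, T101, T102 and T103 and at 104.3, 92.3, 111.9 and 94.2 CPM in T104, T105, T107 and T112. In the I3C mice it was at 65.9, 67, 67.3 and 60.6 CPM in T108, T109, T110 and T111 and at 99.9, 113.2, 102.04 and 99.8 CPM in T106, T113, T114 and T115. Every papain library exceeded every vehicle library on both diets. The log2 fold change was 0.44 ± 0.08 on the AhR-poor diet (1.35-fold, edgeR adjusted p = 0.000203) and 0.67 ± 0.08 on the I3C diet (1.59-fold, edgeR adjusted p = 1.46e-06). It passed the test but not the minimum fold. With no minimum fold, Klk6 and St14 were the 2 members called higher on each diet, where 12.4% of all tested genes on the AhR-poor diet and 12.7% on the I3C diet were called higher by that rule. The exact permutation p was 0.0286 on each diet.

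Spink5, which encodes the inhibitor LEKTI, had the most counts of the set and a wide spread. Its level was 163.6, 190.8, 241.4 and 345.7 CPM in T100, T101, T102 and T103, and 170.7, 246.9, 318.8 and 267.9 CPM in T104, T105, T107 and T112. These ranges covered each other almost entirely (log2 difference 0.09 ± 0.24, edgeR adjusted p = 0.812). Mice on the I3C diet had 122.6, 152.1, 178.7 and 122.0 CPM with vehicle, in the order T108 to T111, and 247.2, 226.3, 160.8 and 176.2 CPM with papain in T106, T113, T114 and T115, a log2 difference of 0.49 ± 0.24 that did not pass (edgeR adjusted p = 0.13).

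The diet comparison asks whether the AhR-poor diet alone moved these genes. With vehicle, 0 of the 10 were called higher or lower in edgeR and 0 in DESeq2, where 1.59% of all tested genes were called higher on the AhR-poor diet and 0% lower, and 4 of the 10 had an unadjusted p below 0.05 (Klk7, Klk10, Spink5 and St14), as did 12.5% of all tested genes. Klk7 was at 95.5, 85.8, 163.3 and 152.3 CPM on the AhR-poor diet and at 42.6, 70.9, 100.0 and 70.7 CPM on the I3C diet, in the order T100 to T103 and T108 to T111. T110 of the I3C diet lay within the range of the AhR-poor libraries and the others below it (log2 difference 0.81 ± 0.30, edgeR adjusted p = 0.248). Spink5 differed by 0.71 ± 0.24 (edgeR adjusted p = 0.174), with 3 of the 4 AhR-poor libraries above all I3C libraries. Klk10 went the other way, with 13 ± 2.37 CPM on the AhR-poor diet and 18.8 ± 3.86 on the I3C diet (log2 difference -0.54 ± 0.20, edgeR adjusted p = 0.241). St14 did not overlap between the diets (74.4 ± 5.84 and 65.2 ± 3.13 CPM, exact permutation p = 0.0286), but its log2 difference was 0.19 ± 0.08 and its adjusted p 0.279 in edgeR.

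With papain, 0 of the 10 were called between diets in edgeR and 0 in DESeq2, where 7.15% of all tested genes were called higher on the AhR-poor diet and 0.0993% lower, and 4 had an unadjusted p below 0.05 (Klk6, Klk11, Klk13 and Klk14), as did 32% of all tested genes. Klk6 had the largest difference of the 9 members above the floor. It was at 16.5 ± 6.01 CPM on the AhR-poor diet and 8.51 ± 3.14 on the I3C diet, and 3 of the 4 AhR-poor libraries (all but T112) were above every I3C library. The log2 difference was 0.95 ± 0.28, with an adjusted p of 0.0252 in edgeR and an exact permutation p of 0.0571. It depended on single libraries, since without T112 of the AhR-poor diet it was 1.14 with an adjusted p of 0.00525, and without T113 of the I3C diet 1.21 with an adjusted p of 0.00932 (edgeR), both past the threshold. Klk13 and Klk11 lay lower on the AhR-poor diet, by log2 differences of -0.57 ± 0.24 and -0.27 ± 0.11 (edgeR adjusted p = 0.114 and 0.0874), with overlapping groups. In the same papain libraries, markers of several cell types also stood higher on the AhR-poor diet. Neutrophil markers stood at 37.8 to 177.8 CPM beside 20.1 to 29.5 CPM on the I3C diet. For dermal fibroblast markers the ranges were 271.1 to 641.8 beside 11.9 to 25.8 CPM, and for endothelial markers 22.1 to 57.3 beside 0.628 to 1.92 CPM. Basal and suprabasal keratinocyte markers had lower medians, at 24400 and 42900 CPM beside 25000 and 48400 CPM. The part of these shifts in the difference of Klk6 was not tested.

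Whether the papain response depended on diet was asked by the interaction of diet and injection. It was called for 0 of the 10 in edgeR at an adjusted p below 0.05 and for 0 in DESeq2, where 0.329% of all tested genes were called, and 2 of the 10 had an unadjusted p below 0.05 (St14 and Klk14), as did 13.5% of all tested genes. The interaction of Klk6 was 0.33 ± 0.46, with a 95% interval of -0.57 to 1.23 and an adjusted p of 0.801, and that of St14 was -0.23 ± 0.11, with an adjusted p of 0.358 (edgeR).

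Within a group, several members were high or low in the same mice. How often other genes were extreme in these libraries was not computed over all tested genes, so this is not shown to be a trait of the members. The counts include Klk14, which was near the floor. In the papain group of the AhR-poor diet, T107 was the highest library for 9 of the 10 genes, all but Klk14, and T104 the lowest for 6. Outside the set, Klk9 and Slpi were also highest in T107 within that group, while Spint1 was highest in T112 and Plat in T105. T107 was also the library with the fewest counts, 22500821. In the vehicle group of the AhR-poor diet, T100 was the lowest for 7 genes and T103 the highest for 5. In the vehicle group of the I3C diet, T110 was the highest for 8 and T108 the lowest for 6. In its papain group, T113 was the highest for 7. Klk5 and Klk8 had the smallest root mean square difference of the 45 pairs over all 16 libraries, 0.226 in centred log2 CPM, followed by Klk11 and St14 at 0.234. Genes that vary little lie close by this measure. The spreads of the genes themselves were 0.399 for Klk5, 0.272 for Klk8, 0.206 for Klk11 and 0.298 for St14. The distance of Klk11 and St14 was thus larger than the spread of Klk11, and does not show a shared pattern.

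Because one member moved and the abundant members did not pass, the make-up of the kallikrein transcripts was also computed, a measure chosen after the values were seen and adjusted over 16 tests. On the AhR-poor diet Klk6 was 0.274% ± 0.0608 of the summed CPM per kb of the 8 kallikreins with vehicle and 3.36% ± 1.03 with papain (SD, n = 4, exact permutation p = 0.0286, adjusted 0.229). In the I3C mice its share was 0.223% ± 0.0366 with vehicle and 1.77% ± 0.416 with papain (exact permutation p = 0.0286, adjusted 0.229). The groups did not overlap on either diet, and 0.0286 is the smallest p that 4 libraries against 4 allow. The adjusted p of 0.229 passed no threshold used here. The share was built from Klk6 after its rise was seen, so its separation restates that rise and is not a separate result. The sum itself was 326 ± 81 CPM per kb with vehicle and 323 ± 49.8 with papain on the AhR-poor diet, and 264 ± 48.4 and 310 ± 42.7 on the I3C diet. The ratio of Klk5 and Klk7 together to their inhibitor Spink5, per kb, was 3.14 ± 0.418 and 2.76 ± 0.311 on the AhR-poor diet and 3.26 ± 0.823 and 2.57 ± 0.235 on the I3C diet, in overlapping groups.

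Of the 5 other kallikreins outside the mouse Klk1b family, Klk9 and Klk12 could be tested, and both lie between the members on chromosome 7. Klk1, Klk4 and Klk15 had fewer than 10 counts in all, as did the 13 Klk1b genes. Klk9 was at 2.26, 3.04, 3.51 and 4.32 CPM in T100, T101, T102 and T103 and at 8.3, 10.1, 14.6 and 7.45 CPM in T104, T105, T107 and T112. In these groups it rose by 1.62 ± 0.30 on the log2 scale (3.07-fold, edgeR adjusted p = 0.000493), and on the I3C diet, from 3.4 ± 0.401 to 14.1 ± 7.1 CPM, by 2.05 ± 0.30 (4.13-fold, edgeR adjusted p = 4.58e-05). Klk12 was lower, at 0.272 to 0.445 CPM with vehicle and 0.588 to 1.77 with papain on the AhR-poor diet, a rise of 1.61 ± 0.40 (edgeR adjusted p = 0.00438) that missed the threshold without T100, T101, T103 or T107 (1.53, 1.54, 1.63 and 1.29, edgeR adjusted p up to 0.0204). On the I3C diet its difference of 1.33 ± 0.40 did not pass (edgeR adjusted p = 0.0142), though the groups did not overlap. On the AhR-poor diet, 3 of the 10 tested kallikreins thus rose, none of them next to another: Klk12, Klk9 and Klk6. Of all tested genes, 6.04% were called higher on that diet. The antisense RNA that overlaps Klk8 and Klk14 moved the other way, from 4.02 ± 0.917 to 1.18 ± 0.238 CPM on the AhR-poor diet and from 4.62 ± 0.911 to 1.15 ± 0.134 on the I3C diet (2310002F09Rik, log2 fold change -1.76 ± 0.21 and -2.01 ± 0.21, edgeR adjusted p = 3.88e-06 and 4.55e-07).

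**Figure D4:**
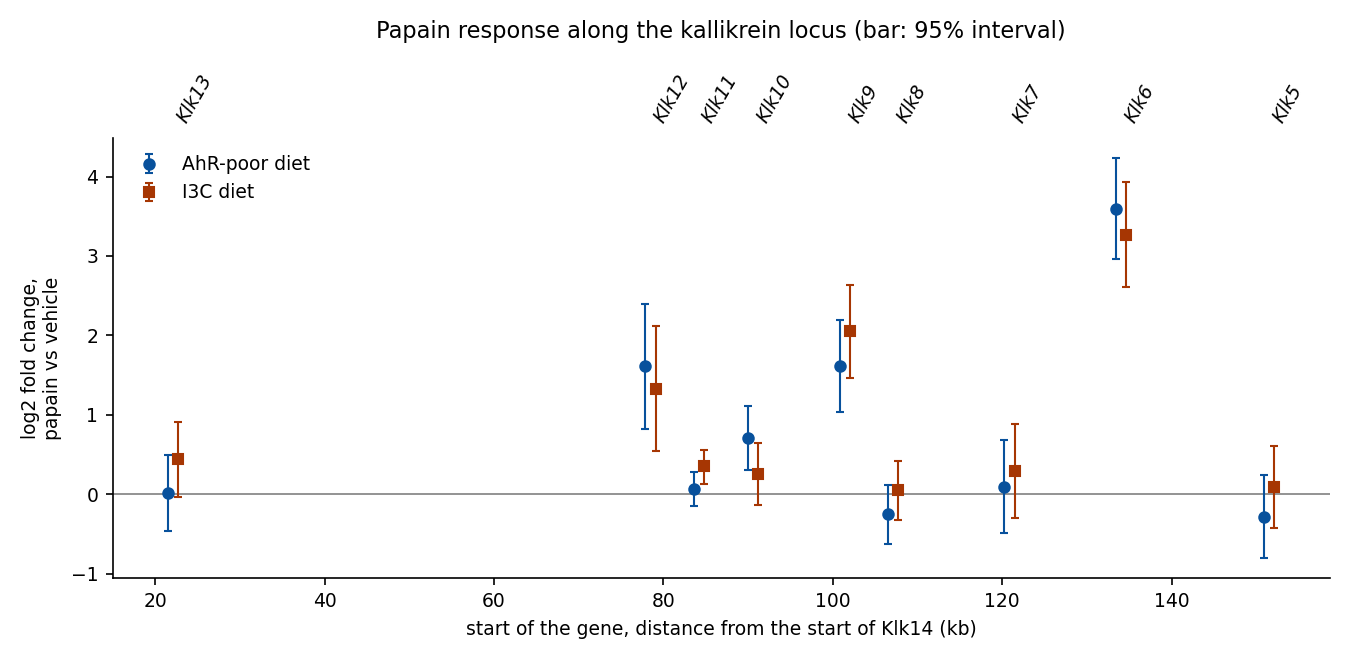
Log2 fold change of papain against vehicle on each diet for the tested kallikreins, except Klk14, placed by the distance of their start from that of Klk14 in kb; bars are 95% intervals of the edgeR fit. Klk12, Klk9 and Klk6 stand above 1 on both diets, and the other genes lie between -0.28 and 0.71.

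Proteases of the wider cascade were described from a list of 14, of which 10 could be tested. On the AhR-poor diet 2 rose and 0 fell with papain, where 6.04% of all tested genes were called higher and 2.42% lower. On the I3C diet 1 rose and 0 fell, beside 3.69% and 5.29% of all tested genes. Prss27, a secreted or membrane-bound serine protease of squamous epithelia, went from 1.51 ± 0.741 to 4.71 ± 0.838 CPM on the AhR-poor diet (log2 fold change 1.63 ± 0.39, edgeR adjusted p = 0.00366) and from 0.753 ± 0.504 to 4.45 ± 1.22 on the I3C diet (2.56 ± 0.42, edgeR adjusted p = 0.000117). Plat, which encodes tissue plasminogen activator, rose on the AhR-poor diet from 5.25 ± 1.03 to 13 ± 2.93 CPM (log2 fold change 1.32 ± 0.20, edgeR adjusted p = 3.86e-05). Between the papain groups, its level was higher on the AhR-poor diet by 1.06 ± 0.19 (edgeR adjusted p = 0.000614), the single call of the list between diets. Of all tested genes, 7.15% were called higher on the AhR-poor diet between the papain groups. Dermal fibroblast and endothelial markers also stood higher on the AhR-poor diet in these groups, and their part in this difference was not tested. The call of Prss27 on the AhR-poor diet was lost without T100, T101 or T107 (1.47, 1.45 and 1.51, edgeR adjusted p up to 0.0153), and that of Plat between diets without T105 or T113 (0.929 and 0.970, under the minimum fold). Prss8, which encodes prostasin, the partner that matriptase activates, differed by 0.38 ± 0.11 and 0.39 ± 0.11 with papain on the AhR-poor and the I3C diet, with adjusted p of 0.0134 and 0.0124 (edgeR). These miss the threshold, although the groups did not overlap. The median log2 fold change of the list was 0.20 on each diet, and 0.31 and 0.28 over the 8 genes with a mean of at least 1 CPM.

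Of 16 protease inhibitors, 15 could be tested, and 3 rose on the AhR-poor diet and 4 on the I3C diet with papain, with 0 lower on either. Over all tested genes the shares were 6.04% and 3.69% higher and 2.42% and 5.29% lower. This and the other related lists were chosen with earlier results known, so their counts cannot test for an excess over these shares. Serpina3n, a secreted serpin of the acute-phase response, went from 2.34 ± 0.725 to 90.3 ± 17.3 CPM on the AhR-poor diet (log2 fold change 5.27 ± 0.32, edgeR adjusted p = 4.2e-08) and from 0.459 ± 0.309 to 47.8 ± 14.9 CPM on the I3C diet (6.66 ± 0.38, edgeR adjusted p = 1.18e-08). It was also the one gene of the list called between diets with vehicle, by 2.31 ± 0.42 (edgeR adjusted p = 0.0055). That call was lost in 9 of the 16 fits that left out 1 library (without T100 to T105, T108, T110 or T111, at 2.06 to 2.40, edgeR adjusted p up to 0.03). Slpi, which encodes the secretory leukocyte protease inhibitor, went from 6.87 ± 1.6 to 94 ± 32.5 CPM on the AhR-poor diet (log2 fold change 3.77 ± 0.43, edgeR adjusted p = 1.94e-05) and from 4.8 ± 1.43 to 109.7 ± 67.1 CPM on the I3C diet (4.52 ± 0.45, edgeR adjusted p = 3.67e-06).

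Wfdc12 and Wfdc5, which encode small inhibitors with a whey acidic protein domain as Slpi does, were also called. Wfdc12 rose on the log2 scale by 1.45 ± 0.36 on the AhR-poor diet and by 2.03 ± 0.38 on the I3C diet (edgeR adjusted p = 0.00689 and 0.000624), with overlapping groups on the AhR-poor diet, and Wfdc5 rose by 1.58 ± 0.33 on the I3C diet (edgeR adjusted p = 0.00156). The call of Wfdc12 on the AhR-poor diet was lost without T100, T101, T102, T105, T107 or T112 (1.24 to 1.42, edgeR adjusted p up to 0.0215). Spint1, which encodes the matriptase inhibitor HAI-1, followed St14 in size. It went from 70.7 ± 4.33 to 113.8 ± 13.7 CPM on the I3C diet (log2 difference 0.69 ± 0.10, edgeR adjusted p = 2.45e-05, below the minimum fold) and from 79.5 ± 10.9 to 98.8 ± 9.88 CPM on the AhR-poor diet (0.31 ± 0.10, edgeR adjusted p = 0.021). The ratio of Spint1 to St14 in CPM was 1.07 ± 0.061 and 0.987 ± 0.131 with vehicle and papain on the AhR-poor diet and 1.08 ± 0.0447 and 1.1 ± 0.157 on the I3C diet. Serpinb8, an intracellular serpin named after its values were seen, fell on both diets by less than the minimum fold, from 73.7 ± 2.25 to 58.6 ± 5.78 CPM on the AhR-poor diet (log2 fold change -0.33 ± 0.09, edgeR adjusted p = 0.00644, but above 0.01 with RLE factors and in 10 of the 16 fits that left out 1 library, up to 0.0257) and from 74.2 ± 5.12 to 55.4 ± 6.85 on the I3C diet (-0.42 ± 0.09, edgeR adjusted p = 0.000857), with no overlap. The median log2 fold change over the 15 inhibitors was 1.07 on the AhR-poor and 0.62 on the I3C diet. Over the 12 with a mean of at least 1 CPM, which leaves out A2ml1, Spink12 and Spink6, it was 0.45 and 0.65, so the order of the diets turned round.

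Substrates and the receptor of these proteases, 11 genes that could all be tested, had 2 called higher with papain on the AhR-poor diet and 1 on the I3C diet, with 0 lower. The shares over all tested genes were 6.04% and 3.69% higher and 2.42% and 5.29% lower. Il1b, which encodes the precursor of a pro-inflammatory cytokine, went from 2.57 ± 0.557 to 233.4 ± 152.1 CPM on the AhR-poor diet (log2 fold change 6.50 ± 0.74, edgeR adjusted p = 2.01e-05) and from 0.378 ± 0.267 to 6.15 ± 5.97 on the I3C diet (4.04 ± 0.93, edgeR adjusted p = 0.00381). With papain it was higher on the AhR-poor diet by 5.23 ± 0.69 (edgeR adjusted p = 0.000136), which ranged from 4.75 without T105 to 6.21 without T106 of the I3C diet. Neutrophils also make Il1b, and their markers stood at medians of 109.2 and 25.5 CPM in the papain groups of the AhR-poor and the I3C diet. In these groups macrophage markers stood at medians of 66.1 and 20 CPM, and Langerhans cell markers at 810.7 and 344.4 CPM. The part of these shifts in the difference of Il1b was not tested. Hgf, a growth factor whose precursor matriptase can cut, was barely detected, at 0.0268 to 0.191 CPM with vehicle and 0.299 to 0.986 CPM with papain on the AhR-poor diet (log2 fold change 2.21 ± 0.57, edgeR adjusted p = 0.00557). It was also called between diets with papain (edgeR adjusted p = 0.00151), where the I3C libraries were at 0 to 0.0974 CPM, at or near the floor, so no fold is given. The papain call of Hgf was lost without T101, T102, T103, T105 or T107 (1.79 to 2.32, edgeR adjusted p up to 0.0364), and that of Il1b on the I3C diet without T106, T108, T109 or T110 (3.06 to 4.16, edgeR adjusted p up to 0.0158).

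Cdsn, which encodes corneodesmosin, the substrate of KLK5 and KLK7 in shedding, was at 76.8 ± 23 and 108.3 ± 26.6 CPM with vehicle and papain on the AhR-poor diet and at 34.4 ± 15.7 and 50 ± 29.7 CPM on the I3C diet. Its groups overlapped in both papain comparisons (log2 difference 0.50 ± 0.39 and 0.54 ± 0.39, edgeR adjusted p = 0.372 and 0.327). F2rl1, the protease-activated receptor, was at 82.6 ± 8.71 and 82.1 ± 5.94 CPM on the AhR-poor diet and at 103.4 ± 39.1 and 82.8 ± 4.87 CPM on the I3C diet, and was not called in any comparison. Dsg1a, which encodes a desmoglein of cell adhesion and was named after its values were seen, was lower with papain on both diets without overlap. It fell from 1770 ± 348.5 to 1000 ± 225.3 CPM on the AhR-poor diet (log2 fold change -0.82 ± 0.17, edgeR adjusted p = 0.00118, below the minimum fold), and was at 1670 ± 201.1 and 1220 ± 175.2 CPM on the I3C diet (-0.45 ± 0.17, edgeR adjusted p = 0.048). The related genes Dsg1b and Dsc1 of the same list did not fall on both diets, and their groups overlapped on each. Their log2 differences were -0.34 ± 0.23 and -0.49 ± 0.28 on the AhR-poor diet (edgeR adjusted p = 0.3 and 0.2). On the I3C diet they were 0.38 ± 0.23 and 0.39 ± 0.28 (edgeR adjusted p = 0.238 and 0.313). The median log2 fold change over the 11 genes was -0.34 on the AhR-poor and 0 on the I3C diet, and -0.49 and -0.32 over the 9 with a mean of at least 1 CPM.

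**Figure D5:**
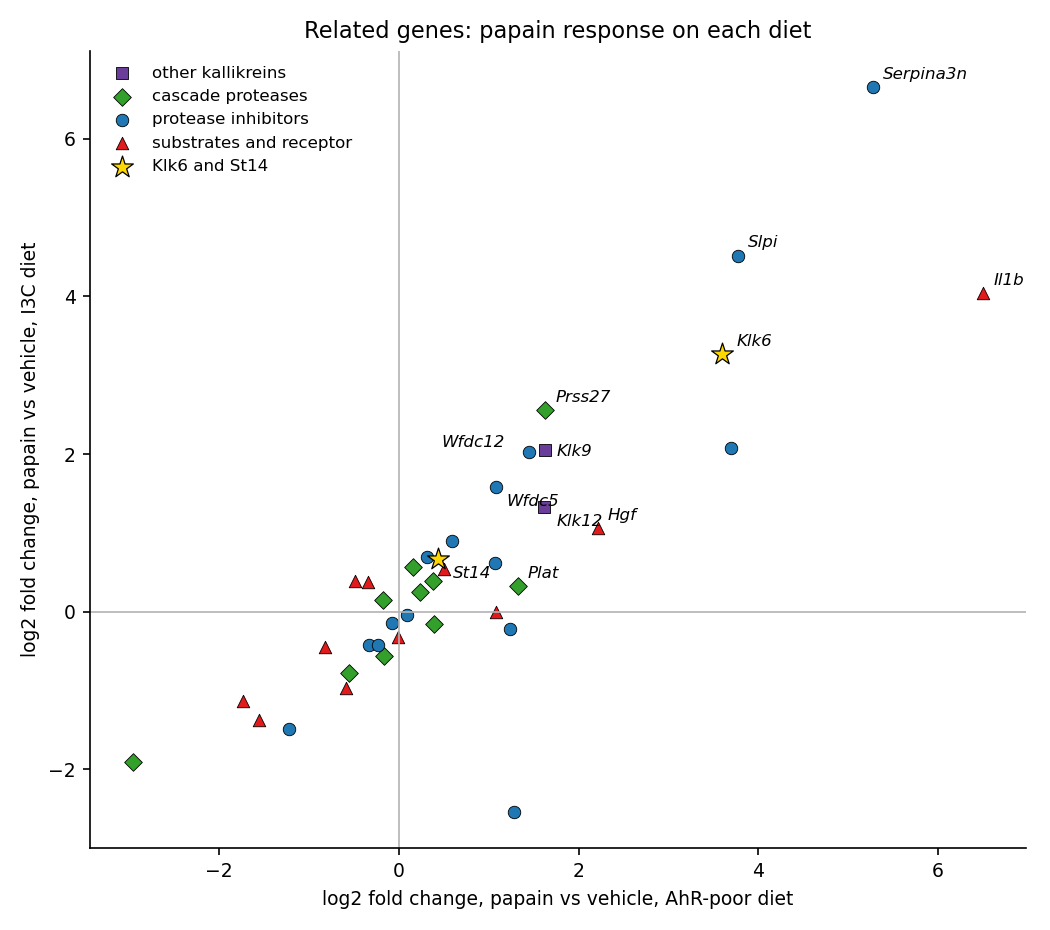
Log2 fold change of papain against vehicle on the AhR-poor diet (horizontal) and the I3C diet (vertical) for the tested genes of the 4 related lists, with Klk6 and St14 as stars; genes called on either diet are named, and unnamed points did not pass. Klk6 (3.59 and 3.27) lies near Slpi (3.77 and 4.52) and between St14 (0.44 and 0.67) and Serpina3n (5.27 and 6.66).

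The genes whose pattern over the 16 libraries was most like that of Klk6 were Efemp2, which encodes an extracellular matrix fibulin, Ifi203, an interferon-inducible gene, and Ddah1, which encodes an enzyme that degrades methylated arginine. Their root mean square differences from Klk6 in centred log2 CPM were 0.474, 0.535 and 0.551, beside a spread of Klk6 itself of 1.79, among 13006 genes with a mean of at least 1 CPM. Sult2b1, a cholesterol sulfotransferase of the upper epidermis, was the closest gene to both Klk5 (0.195) and Klk8 (0.119). Dnase1l3 was the closest to Spink5 (0.187) and the second closest to Klk7 (0.239). Lypd3 was the closest to Klk11 (0.0872), Cth to Klk10 (0.208), Endou to Klk13 (0.209) and Dcun1d5 to St14 (0.0946). The spreads of these members themselves ran from 0.206 for Klk11 to 0.553 for Klk7.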

How the data were processed

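The authors sequenced TruSeq Stranded mRNA libraries as 100-nt read pairs, aligned them with STAR to mm10 and deposited raw counts per gene for the 16 libraries; the counting tool, annotation release and strand setting are not given in the sources used here. The labels do not say which of 3 sequencing units held each library, so no batch term was fitted. Genes whose counts reached 10 over all libraries were tested in edgeR 4.0.16 (R 4.3.3), with TMM factors, a mean for each of 4 groups and the robust quasi-likelihood test. Calls required an adjusted p (Benjamini-Hochberg) below 0.01 with at least 1 on the log2 scale in either direction (interaction: 0.05, no minimum). Single values were also compared with a two-sided exact permutation test. On simulated data, 195 of 200 changed genes were recovered for papain on the AhR-poor diet, among 21772 tested genes. Recovery was not tested for differences under the minimum fold or for genes under a mean of 1 CPM. DESeq2 1.42.0, other normalizations, filters and thresholds, and leaving out each library were alternatives. Medians of the related lists without genes under a mean of 1 CPM were added after seeing the data. Replicates are mice. The 95% intervals of fold changes come from the edgeR fit and include the spread between mice, while floors for low counts cover counting error only. Distances between expression patterns used log2 CPM centred on each gene's mean. The genes named are the 10 members, the called genes of the related lists (at most 4 per list and comparison), Prss8, Spint1, Cdsn and F2rl1. Serpinb8, Dsg1a, Dsg1b and Dsc1 were added after their values were seen. The genes nearest in pattern are also named, for members other than Klk6 only in part. The antisense RNA was named because it shares exonic bases with members. The members and lists were chosen with earlier results of these data known.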

Additional observations from a re-analysis of the deposited data

Results flagged for a closer look

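Among 40 groups of 4 libraries (10 genes in 4 groups), 1 held a library far from the others. Klk14 in the papain group of the I3C diet was at 0.0321 CPM in T113, from a single count, and at 0 in the other 3 libraries. Chance alone flags about 1 group in 20 by this criterion, and a single count cannot be told from 0.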

How the results depend on the processing

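Of the log2 fold changes of single genes, 453 kept direction and side of the threshold under the other methods (RLE factors, library size only, filterByExpr, genes with at least 1 count, DESeq2, only the 8 libraries compared) and 1187 with 1 library left out. Under the other methods, 9 changed sign, 3 lost their call and 0 gained one. With 1 library left out, 42 changed sign, 33 lost their call and 2 gained one. The rise of Klk6 ranged from 3.58 to 3.63 on the AhR-poor diet and from 3.23 to 3.29 on the I3C diet over the methods. With no minimum fold, 2 members were called higher with papain on each diet (Klk6 and St14). At an adjusted p below 0.05, Klk14 alone added 1 member lower with papain on the I3C diet and 1 higher on the AhR-poor diet with papain, from 0 to 6 counts per library. With 1 library left out, members called lower with papain on the I3C diet ranged from 0 to 1 (Klk14, without T113) and members called higher on the AhR-poor diet with papain from 0 to 1 (Klk6, without T112 or T113). With the longest transcript as the length, 6 of 10 members kept their rank in the papain group of the AhR-poor diet. Wfdc12 on the AhR-poor diet (1.45) and Serpina3n between diets with vehicle (2.31) missed the threshold when every gene with at least 1 count was tested, and Wfdc12 with only the 8 libraries compared (1.44).

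Library size only moved the median of all genes by 0.105 between diets with papain, and Klk8, Klk10 and St14 were then at 0.0224, 0.0258 and 0.0629. RLE factors and DESeq2 put Klk11 between diets with vehicle at -0.000156 and -0.000157. F2rl1 with papain on the AhR-poor diet turned from -0.00872 to 0.021, 0.00533, 0.000647 and 0.0214 with RLE factors, library size only, filterByExpr and DESeq2. With 1 library left out, differences near 0 changed sign: with papain on the AhR-poor diet Klk7 (-0.0496 to 0.267), Klk11 (-0.00262 to 0.181), Klk13 (-0.186 to 0.203), Spink5 (-0.04 to 0.349) and F2rl1 (-0.0655 to 0.0679), on the I3C diet Klk5 (-0.0716 to 0.209) and Klk8 (-0.0613 to 0.15), between diets with vehicle Klk11 (-0.104 to 0.0715) and Klk13 (-0.329 to 0.0605), between diets with papain Klk8 (-0.198 to 0.0341), Klk10 (-0.177 to 0.156) and St14 (-0.0964 to 0.0125), and in the interaction Klk7 (-0.386 to 0.0602). The cause of these changes was not tested. No paired analysis was possible because each library has a number of its own.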
